A study of Homo sapiens with 6 samples.

Results

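Hypoxia response and glycolysis genes were followed in human lung cancer cells across 3 related lines. The 40 genes were chosen by symbol, from knowledge of the pathway, out of 26475 genes in the table over all libraries. Earlier results of these data were known when they were chosen. They are 3 subunits of the hypoxia-inducible factors, 3 oxygen-dependent dioxygenases, 2 glucose transporters, 15 glycolytic enzymes, 2 regulators of glycolytic flux, 3 genes of lactate and pyruvate handling, 2 carbonic anhydrases, 2 secreted factors, 3 matrix-modifying enzymes and 5 further targets of hypoxia. Messenger RNA was sequenced in 6 libraries: PC9, PC9-BrM4 and PC9-AMG had 2 each. PC9 is an established lung adenocarcinoma line known to carry an activating EGFR mutation, and the other names mark derivatives of it. All 3 groups were cultured in MGS, so none is an ordinary culture of the cells alone, and the labels name no exposure to low oxygen. What the letters BrM4, AMG and MGS stand for is not in the labels; the study is known to use that name for a culture on a soft material that also holds glial cells of mice. The labels do not say whether a derivative is 1 clone, nor whether its 2 libraries come from separate cultures, and p-values measure the spread between these libraries, which may be technical.

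Hypoxia-inducible factors are pairs of an oxygen-labile alpha subunit and the stable partner ARNT. When oxygen is present, prolyl hydroxylases mark the alpha subunit for destruction through the VHL ubiquitin ligase, so the factors are controlled mainly at the protein level, which was not measured here. When oxygen is short the alpha subunit persists, and the pair binds the short letters ACGTG or GCGTG near its target genes. Those targets include glucose transporters and most glycolytic enzymes, lactate dehydrogenase, the kinase that closes pyruvate off from mitochondria, carbonic anhydrases, and secreted and matrix-modifying proteins. Many tumour cells, lung adenocarcinoma among them, also run glycolysis at high rates with oxygen present.

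The promoters of 3 genes are shown because these genes were lower in each derivative than in PC9 in the tests given later. Each sequence holds the 250 bases before a RefSeq start site (GRCh38.p14), on the strand of the gene, and capitals mark the letters ACGTG and, as a second motif, the letters GCGTG. A match on the other strand reads CACGT for the first motif, while for the second motif it reads CACGC. LOX, at chr5:122078260-122078509 on the minus strand, held 4 such matches, 185, 116, 98 and 42 bases before the start. PFKFB3, at chr10:6144671-6144920 on the plus strand, held 1 match, 168 bases before the start. KDM3A, at chr2:86441121-86441370 on the plus strand, held 1 match, 26 bases before the start. RefSeq listed more than 1 start for each of these genes (3 for LOX, 2 for PFKFB3 and 2 for KDM3A). The window belongs to the start nearest to the beginning of the deposited gene model. The deposited models begin inside the windows, at 122078360 for LOX, 6144880 for PFKFB3 and 86441148 for KDM3A. Part of each printed sequence therefore lies within the deposited gene. That part includes the KDM3A match and the LOX matches 98 and 42 bases before the start.
LOX: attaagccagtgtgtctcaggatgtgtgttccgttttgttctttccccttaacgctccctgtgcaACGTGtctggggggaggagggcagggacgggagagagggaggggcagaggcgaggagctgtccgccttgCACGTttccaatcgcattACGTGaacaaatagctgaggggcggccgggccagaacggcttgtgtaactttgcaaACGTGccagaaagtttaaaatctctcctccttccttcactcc
PFKFB3: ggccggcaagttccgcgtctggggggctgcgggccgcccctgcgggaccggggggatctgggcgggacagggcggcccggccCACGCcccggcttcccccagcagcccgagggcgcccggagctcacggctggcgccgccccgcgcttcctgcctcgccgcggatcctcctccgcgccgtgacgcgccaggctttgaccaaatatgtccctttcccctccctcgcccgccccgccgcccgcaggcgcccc
KDM3A: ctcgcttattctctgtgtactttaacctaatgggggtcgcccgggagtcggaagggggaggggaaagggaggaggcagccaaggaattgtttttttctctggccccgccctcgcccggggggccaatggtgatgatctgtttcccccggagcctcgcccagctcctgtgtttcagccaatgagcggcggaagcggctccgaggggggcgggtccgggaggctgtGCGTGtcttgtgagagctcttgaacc

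These letters are common, and a match is no evidence of binding. In windows from 250 bases before to 50 bases after the start, on either strand and with 1 promoter a gene, 25 of 35 of the hypoxia and glycolysis genes (71.4%) held ACGTG or GCGTG. The same held for 62.4% of 10295 promoters of tested genes and for 48.4% of all 27305 promoters. ACGTG alone was in 40% of the hypoxia and glycolysis genes and in 26.4% of the tested genes, and GCGTG alone in 45.7% and 50%. ACGTG is also part of the E-box CACGTG, which other factors bind. SLC2A3, VEGFA, NDRG1, BNIP3L and HILPDA had no entry in the promoter table.

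The level of a gene is given as TPM, its share of all transcripts corrected for gene length. All 40 genes passed the filter of at least 1 TPM in at least 2 libraries, and the lowest single value was 2.80 TPM (CA12 in a PC9-BrM4 library). At least 1000 TPM was reached in every library by 8 of them (GAPDH, ALDOA, LDHA, ENO1, PKM, TPI1, NDRG1 and PGK1) and at least 100 TPM by 21, while LOX and CA12 fell under 10 TPM in some library. GAPDH was the gene ranked 1 or 2 of all genes in each library, with a mean of 14782 TPM over the 6. The 15 glycolytic enzymes together made up 3.34 ± 0.0115% of all TPM in PC9, 3.42 ± 0.0681% in PC9-BrM4 and 3.14 ± 0.146% in PC9-AMG (SD, n = 2). The lowest members of the pathway after CA12 and LOX were ARNT, EGLN1 and PFKM, with means of 23.0, 28.6 and 31.1 TPM over the 6 libraries. The plot of levels shows these values with the genes grouped by role and not sorted by level.

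**Figure D1:**
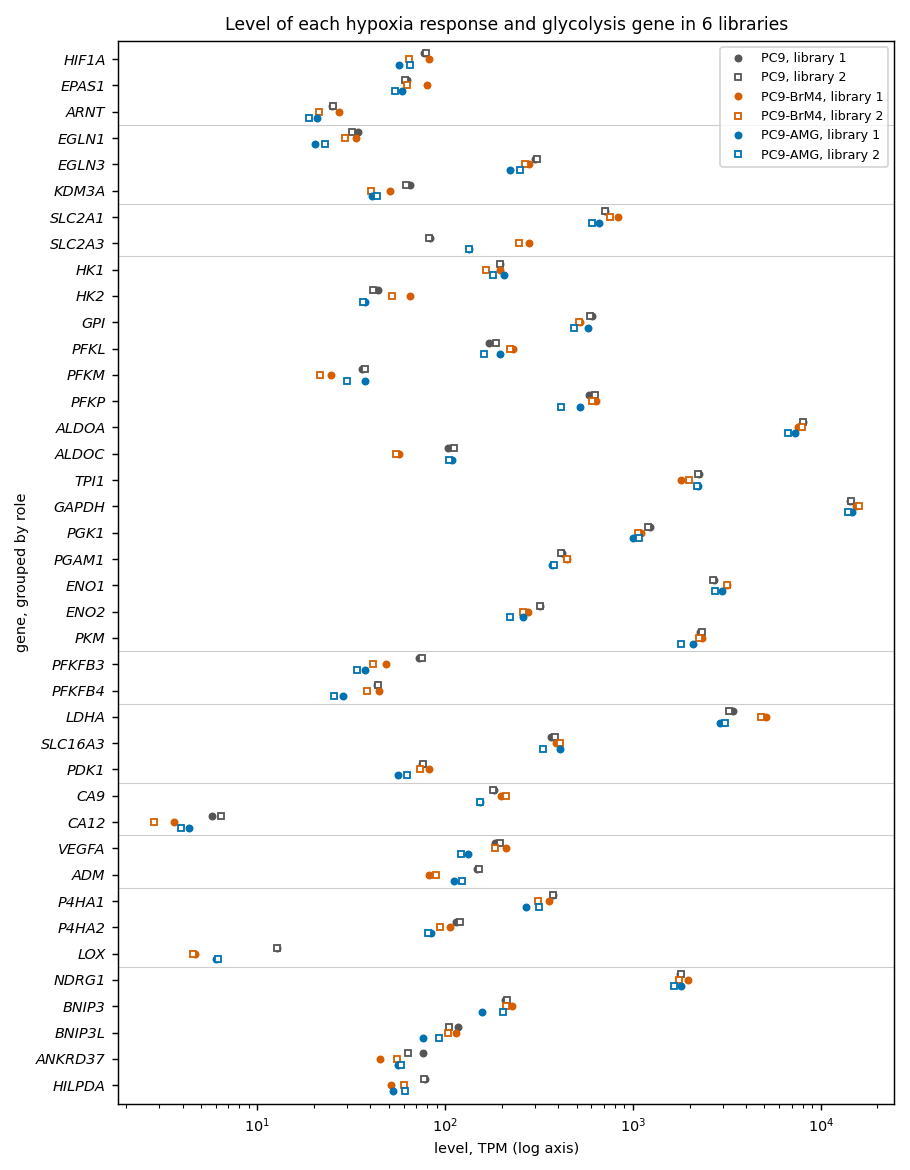
Level of each of the 40 genes in TPM on a log axis, grouped by role, with filled circles for library 1 and open squares for library 2 of PC9 (grey), PC9-BrM4 (orange) and PC9-AMG (blue). GAPDH, with a mean of 14782 TPM, lies farthest to the right and CA12 farthest to the left, and SLC2A3 is the gene whose 3 groups lie farthest apart.

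The 6 libraries had similar numbers of expressed genes and differed in other general features. Between 13848 and 14171 genes reached 1 TPM in a library. The 100 highest genes held between 25.7% (PC9-BrM4 library 1) and 29.8% (PC9-AMG library 2) of TPM. The coverage of a gene at 1 TPM lay between 0.606 and 0.664 reads per base in PC9 and PC9-BrM4. It was 0.822 and 0.749 reads per base in PC9-AMG. The files give no read counts, so the depth is unknown. Across the 14627 tested genes the Pearson correlation of log2(TPM + 1) was 0.986 to 0.990 within groups and 0.967 to 0.981 between groups, over genes that are not independent replicates. Of 9 epithelial and lung cancer markers, 8 were expressed, while the lung factor NKX2-1 stayed under 1 TPM in every library. The markers summed to 15523 and 15787 TPM in PC9, 11783 and 12140 TPM in PC9-BrM4, and 14044 and 13512 TPM in PC9-AMG. The astrocyte markers GFAP and S100B and the microglial markers AIF1, CX3CR1, P2RY12 and TMEM119 were listed at 0 in all 6 libraries. The 8 astrocyte markers summed to 32.8 to 36.3 TPM in PC9, with sums between 27.2 and 28.02 TPM in PC9-BrM4 and between 70.0 and 75.8 TPM in PC9-AMG, most of it ALDH1L1 and APOE; the lipoprotein gene APOE was at 9.17 and 13.9 TPM in PC9, 4.52 and 6.51 TPM in PC9-BrM4, and 41.9 and 39.7 TPM in PC9-AMG. The glutamate transporter gene SLC1A3, also an astrocyte marker, was listed at 0 in both PC9 libraries and was at 3.44 and 2.12 TPM in PC9-BrM4 and 0.652 and 0.361 TPM in PC9-AMG. ITGAM, a microglia and macrophage marker, was at 3.397 and 3.362, 8.54 and 6.57, and 6.96 and 6.19 TPM in the same order of lines. CSF1R, of the same list, was at 6.98 and 7.32, 9.70 and 9.96, and 9.40 and 6.81 TPM. CD68, also of that list, went the other way in PC9-BrM4, at 222 and 215, 163 and 150, and 229.5 and 211 TPM. The 8 microglia and macrophage markers summed to 166 to 246 TPM, mainly the lysosomal gene CD68, the 7 fibroblast markers to 9.30 to 17.9 TPM (PDGFRA and LUM at 0) and the 5 endothelial markers to 1.51 to 2.11 TPM. The part of reads from other cells, mouse cells among them, in the results that follow was not tested.

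Against PC9, PC9-BrM4 showed changes in both directions. SLC2A3, the neuronal-type glucose transporter GLUT3, LDHA, HK2 and ENO1 rose, and 10 genes fell, led by LOX and ALDOC and followed by ADM, CA12, PFKFB3, PFKM, KDM3A, ANKRD37, HILPDA and TPI1. These 14 of 40 genes (35.0%) stand beside 16.3% of all tested genes called in either direction; 9.89% of tested genes were higher and 6.45% lower. A gene was called where limma's p, adjusted over all 14627 tested genes by the Benjamini-Hochberg method, was under 0.05. With a filter at 5 TPM, 15 of the 40 genes and 2357 of 11498 tested genes were called. Many of the 40 genes were abundant, and a comparison with genes of like level was not made. The median log2 difference of the 40 genes was -0.07, against 0.09 for all tested genes. With any of the 4 libraries left out, 6 to 10 of the 40 genes were called: 6 without PC9 library 1, 6 without PC9 library 2, 9 without PC9-BrM4 library 1 and 10 without PC9-BrM4 library 2. With each library scaled to the same median, 2 rose and 10 fell, while all tested genes split into 917 higher and 1293 lower in place of 1446 and 943.

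Against PC9, PC9-AMG showed mostly lower values. SLC2A3 alone of the 40 genes rose, and PFKFB3, LOX, PFKFB4, EGLN1, KDM3A, VEGFA, P4HA2, ENO2 and EGLN3 fell. These 10 of 40 genes stand beside 7.49% of all tested genes, of which 3.67% were higher and 3.82% lower. The difference was below 0 for 38 of 40 genes, the exceptions being SLC2A3 and ENO1, while 43.0% of all tested genes were above 0. The count of 38 depends on the scaling, because some differences were near 0. That of GAPDH (-0.019) turned above 0 after median scaling (0.0503). An unadjusted p under 0.05 was found for 22 of 40, beside 3706 of 14627 tested genes. With a filter at 5 TPM, 15 of the 40 genes and 1531 of 11498 tested genes were called. The median log2 difference was -0.24, against -0.05 for all tested genes. After median scaling these medians were -0.17 and 0.02, and 1 of the 40 genes was called higher and 7 lower. The number of calls rested on each of the 4 libraries: 2 without PC9 library 1, 1 without PC9 library 2, 6 without PC9-AMG library 1 and 2 without PC9-AMG library 2. All tested genes split into 537 higher and 559 lower, with 685 and 436 after median scaling and 902 and 561 in FPKM. Both derivatives were compared with the same 2 PC9 libraries, so their differences from PC9 are not independent.

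The derivatives differed from each other in 14 of 40 genes (35.0%), beside 18.6% of all tested genes, of which 6.31% were higher and 12.3% lower in PC9-AMG. ALDOC, PFKM and ADM were higher in PC9-AMG than in PC9-BrM4, and SLC2A3, LDHA, HK2, VEGFA, PFKFB4, EGLN1, CA9, PFKP, PDK1, SLC2A1 and PGAM1 were lower. With a filter at 5 TPM, 18 of the 40 genes and 2859 of 11498 tested genes were called. The median log2 difference was -0.23, against -0.13 for all tested genes. Median scaling moved the median of all tested genes in this comparison from -0.13 to 0.04, and in PC9-BrM4 against PC9 from 0.09 to -0.02. On that scale 4 of the 40 genes were higher and 5 lower, and in FPKM 3 and 6. All tested genes split into 923 higher and 1797 lower, with 1606 and 900 after median scaling, 1326 and 1137 after quantile normalization and 1341 and 1283 in FPKM. Without PC9-BrM4 library 1, 5 of the 40 genes were called. In all, 25 genes were called in at least 1 comparison and 15 in none.

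**Figure D2:**
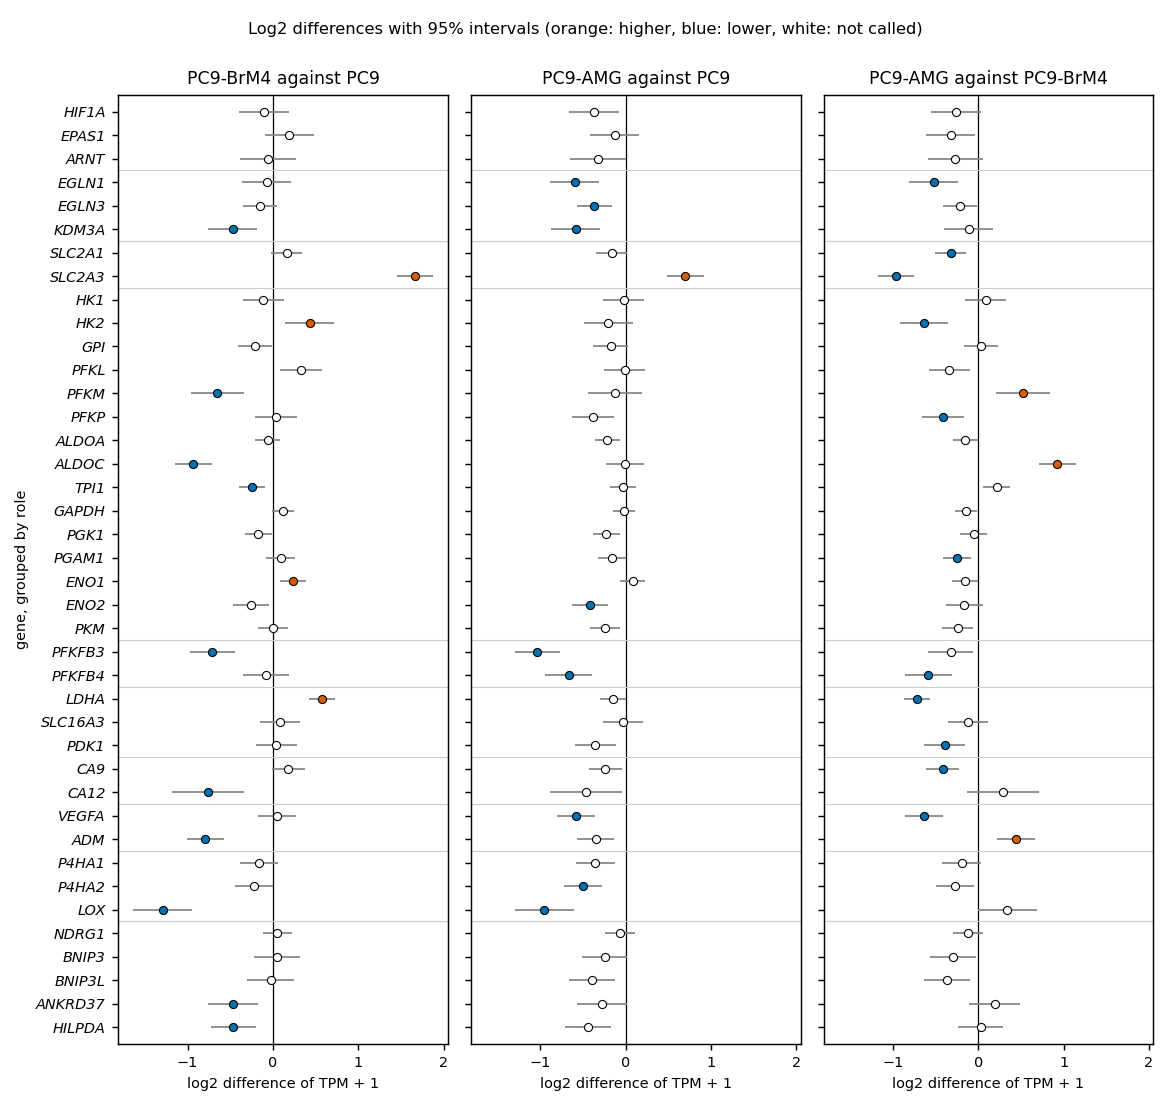
Log2 difference of TPM + 1 for each of the 40 genes in the 3 comparisons, with 95% intervals; orange points were called higher in the first-named line, blue points lower, and white points were not called. In the middle panel 38 of 40 points lie below 0, and SLC2A3 is the point farthest to the right in the first 2 panels.

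Of the transcription factor subunits, none was called in any comparison. HIF1A, the alpha subunit induced in most cell types, was at 77.2 and 79.4 TPM in PC9, 81.9 and 64.4 TPM in PC9-BrM4, and 56.4 and 64.9 TPM in PC9-AMG. The PC9-AMG values lay below those of PC9, with a log2 difference of -0.37 ± 0.13 (SE) and an adjusted p of 0.117. EPAS1, which encodes the related alpha subunit HIF-2 alpha, was at 62.6 and 61.3, 79.98 and 62.9, and 59.2 and 54.0 TPM in the same order. ARNT, the shared partner, was at 24.8 and 25.3, 27.2 and 21.2, and 20.8 and 18.8 TPM. The 95% intervals against PC9 ran from -0.40 to 0.18 for HIF1A in PC9-BrM4 and from -0.65 to 0.00 for ARNT in PC9-AMG, so changes of that size are not excluded.

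The oxygen-dependent dioxygenases were all 3 lower in PC9-AMG than in PC9. EGLN1 encodes the main prolyl hydroxylase that marks the alpha subunits, and its level was 34.2 and 31.8 TPM in PC9, 33.5 and 29.2 TPM in PC9-BrM4, and 20.2 and 22.8 TPM in PC9-AMG. Both PC9-AMG libraries lay below the other 4, by -0.60 ± 0.13 from PC9 (adjusted p = 0.0265) and -0.52 ± 0.13 from PC9-BrM4 (adjusted p = 0.0216). EGLN3, a hypoxia-induced prolyl hydroxylase, was the more abundant of the pair at 299.6 and 308.8, 279 and 267, and 222 and 251 TPM, and fell by 0.36 from PC9 to PC9-AMG (adjusted p = 0.0400). KDM3A, a histone demethylase that is itself a hypoxia target, was at 65.3 and 61.7 TPM in PC9, 51.1 and 40.5 TPM in PC9-BrM4, and 40.8 and 43.3 TPM in PC9-AMG. Both derivatives lay below PC9 without overlap and overlapped each other, with differences of -0.47 ± 0.13 (adjusted p = 0.0339) and -0.58 ± 0.13 (adjusted p = 0.0278). These calls were not stable: against PC9 in PC9-AMG, each of the 3 was lost with any 1 of the 4 libraries left out (adjusted p between 0.0584 and 0.302). KDM3A in PC9-BrM4 was lost without either PC9 library or PC9-BrM4 library 2 (0.120 to 0.228), and EGLN1 between the derivatives without PC9-BrM4 library 1 or PC9-AMG library 1 (0.0876 to 0.116). EGLN3, and EGLN1 between the derivatives, also lost the call after median scaling.

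The glucose transporters changed unequally. SLC2A3 (chr12:7919228-7936296, minus strand) was at 82.8 and 81.6 TPM in PC9, 280.2 and 246 TPM in PC9-BrM4, and 134 and 135 TPM in PC9-AMG. The 3 groups did not overlap, with PC9-BrM4 highest and PC9 lowest. The log2 difference from PC9 was 1.66 ± 0.10 in PC9-BrM4 (adjusted p = 5.2e-06), a 3.20-fold ratio of means, and 0.70 ± 0.10 in PC9-AMG (adjusted p = 0.00455), a 1.63-fold ratio. PC9-AMG lay below PC9-BrM4 by -0.96 ± 0.10 (adjusted p = 0.000211). The call in PC9-AMG against PC9 was lost without PC9 library 2 (adjusted p = 0.0520). SLC2A14, a near-identical copy beside SLC2A3, had the same order of groups at 4.44 and 3.88, 13.6 and 11.9, and 7.15 and 6.49 TPM, and how reads shared by the copies were assigned is not stated. SLC2A1, which encodes the broadly expressed transporter GLUT1, was at 707 and 710.2, 828 and 758, and 662 and 604 TPM; it was called only between the derivatives (-0.32 ± 0.08, adjusted p = 0.0222), and this call was lost without PC9-BrM4 library 1 or PC9-AMG library 2 (0.0954 to 0.114) and after median scaling. As a share of the summed TPM of both transporters, SLC2A3 was 10.4 ± 0.126% in PC9, 24.9 ± 0.553% in PC9-BrM4 and 17.5 ± 0.971% in PC9-AMG (SD, n = 2).

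**Figure D3:**
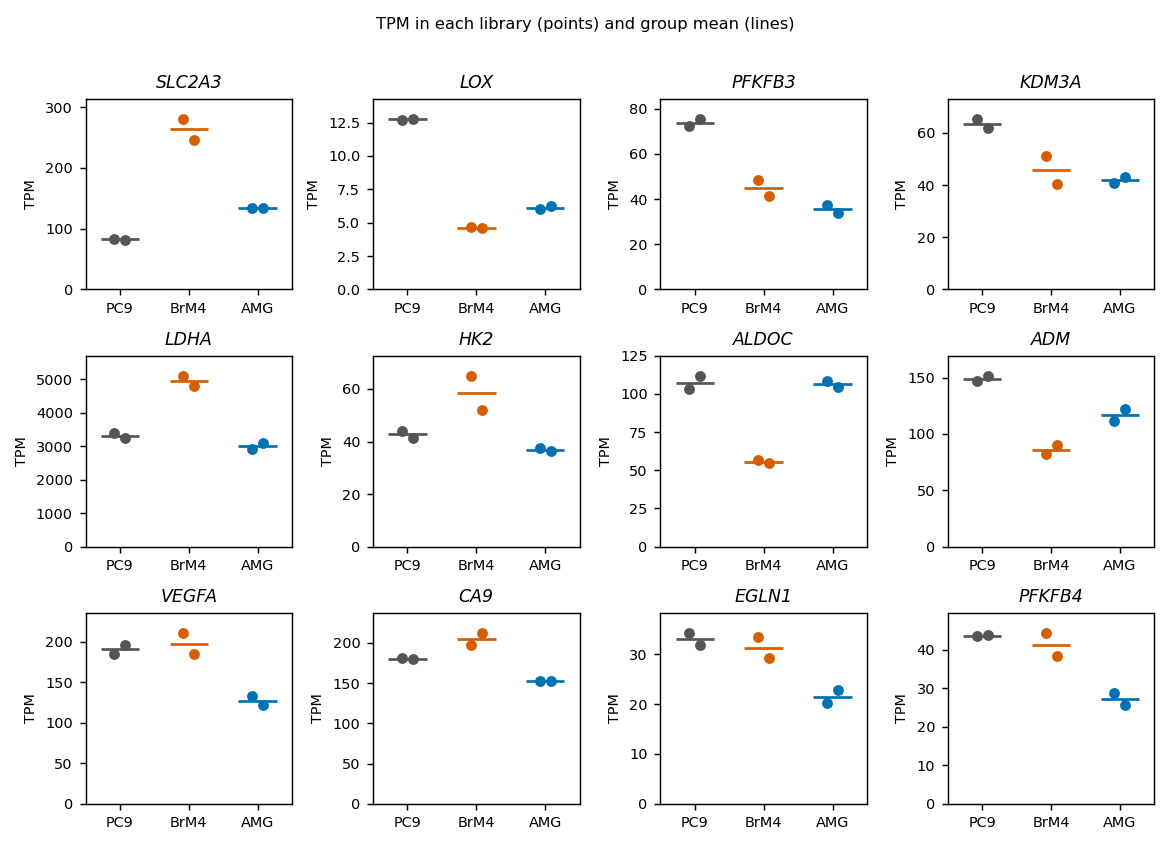
TPM of 12 genes in each library (points) with the group mean (lines), each panel starting at 0, for PC9 (grey), PC9-BrM4 (orange) and PC9-AMG (blue). SLC2A3 has 3 separate levels, LOX, PFKFB3 and KDM3A are lower in both derivatives than in PC9, and LDHA and HK2 are high in PC9-BrM4 while VEGFA, EGLN1 and PFKFB4 are low in PC9-AMG.

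Among the glycolytic enzymes, 2 of 15 rose (HK2 and ENO1) and 3 fell (PFKM, ALDOC and TPI1) in PC9-BrM4, and 1 fell (ENO2) in PC9-AMG. These were 33.3% and 6.67% of the enzymes, beside 16.3% and 7.49% of all tested genes. Between the derivatives 2 were higher and 3 lower in PC9-AMG, 33.3% beside 18.6% of all tested genes. The clearest change was in ALDOC, the brain-type aldolase gene, on chr17:28573115-28576933. It was at 103 and 112 TPM in PC9, 56.8 and 54.5 TPM in PC9-BrM4, and 109 and 105 TPM in PC9-AMG. Both PC9-BrM4 libraries lay below the other 4, by -0.93 ± 0.10 from PC9 (adjusted p = 0.000223), and PC9-AMG exceeded PC9-BrM4 by 0.93 ± 0.10 (adjusted p = 0.000289), with both calls made whichever library was left out. The major aldolase ALDOA was at 8050.1 and 8043, 7516 and 7939, and 7252 and 6651 TPM and was called in no comparison, so ALDOC remained a minor share of aldolase TPM at 1.32 ± 0.0752%, 0.716 ± 0.0482% and 1.51 ± 0.0544%.

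Hexokinase and phosphofructokinase catalyse the regulated early steps. HK2, the inducible hexokinase, was at 44.1 and 41.3 TPM in PC9, 64.9 and 51.9 TPM in PC9-BrM4, and 37.5 and 36.4 TPM in PC9-AMG. PC9-BrM4 was highest without overlap, by 0.43 ± 0.13 over PC9 (adjusted p = 0.0461), and PC9-AMG was lower than PC9-BrM4 by -0.64 ± 0.13 (adjusted p = 0.00857). The constitutive HK1, at 166 to 205 TPM, was not called, and HK2 made up 18.0 ± 0.663%, 24.3 ± 0.703% and 16.2 ± 0.973% of hexokinase TPM in PC9, PC9-BrM4 and PC9-AMG. PFKM, the muscle-type phosphofructokinase, was at 35.9 and 37.4, 24.6 and 21.5, and 37.6 and 29.8 TPM, lower in PC9-BrM4 than in PC9 by -0.65 ± 0.14 (adjusted p = 0.0127) and higher in PC9-AMG than in PC9-BrM4 by 0.53 ± 0.14 (adjusted p = 0.0300). PFKP, the platelet type and the most abundant of the 3, was at 579.6 and 628, 635 and 602, and 522 and 412 TPM and was lower in PC9-AMG than in PC9-BrM4 (-0.41 ± 0.11, adjusted p = 0.0285). The HK2 and PFKM calls against PC9 were lost without either PC9 library and without PC9-BrM4 library 1 (HK2) or 2 (PFKM), at adjusted p between 0.0733 and 0.291, and HK2 also after median scaling. Between the derivatives HK2 was lost without PC9-BrM4 library 1 or PC9-AMG library 2, PFKM without either PC9-BrM4 library or PC9-AMG library 1, and PFKP without either PC9-BrM4 library or PC9-AMG library 2 (0.0551 to 0.180), PFKP also after median scaling.

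The later steps moved by small amounts. ENO1, the common enolase, was at 2699 and 2675, 3152 and 3182, and 2976 and 2721 TPM, and rose by 0.24 ± 0.07 in PC9-BrM4 (adjusted p = 0.0402). ENO2, the neuronal enolase and a hypoxia target, was at 320.5 and 319, 276 and 259, and 258 and 221 TPM and fell by 0.42 in PC9-AMG (SE 0.10, adjusted p = 0.0318). TPI1, which interconverts the triose phosphates, was at 2257 and 2221, 1799 and 1979, and 2206 and 2183 TPM and fell by 0.25 in PC9-BrM4 (SE 0.07, adjusted p = 0.0396). PGAM1, a phosphoglycerate mutase, was at 420.2 and 414, 443 and 445, and 369 and 379 TPM and differed between the derivatives by -0.25 ± 0.07 (adjusted p = 0.0456). Groups did not overlap in any of these 4 comparisons, but ENO1 and PGAM1 lost the call with any library of their comparison left out, TPI1 without either PC9 library or PC9-BrM4 library 1, and ENO2 without either PC9 library or PC9-AMG library 2 (adjusted p between 0.0653 and 0.299). ENO1, TPI1, ENO2 and PGAM1 also lost it after median scaling. HK1, GPI, PFKL, ALDOA, GAPDH, PGK1 and PKM were called in no comparison; the nearest was PFKL in PC9-AMG against PC9-BrM4 (-0.34 ± 0.11, adjusted p = 0.0539). Many of these genes, GAPDH, PGK1, PGAM1, ENO1, LDHA, TPI1 and ALDOA among them, have processed pseudogenes that can share their reads, and how the authors assigned such reads is not stated.

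**Figure D4:**
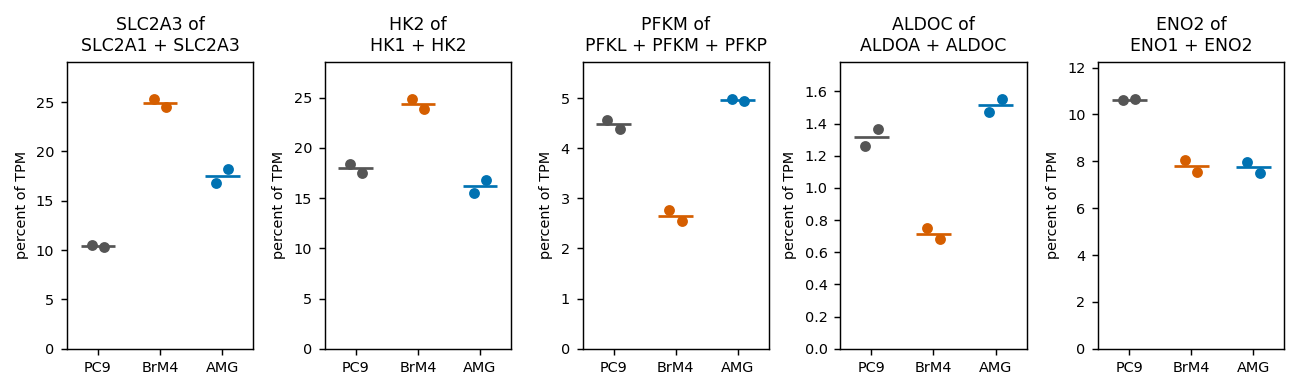
Share of the minor form in the summed TPM of its transporter or enzyme family, in percent, for each library (points) and group mean (lines), each panel starting at 0. SLC2A3 is highest in PC9-BrM4 at 24.9%, HK2 is highest there at 24.3%, PFKM and ALDOC are lowest there at 2.66% and 0.716%, and ENO2 is lower in both derivatives (7.79% and 7.75%) than in PC9 (10.6%).

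PFKFB3 fell in both derivatives, and PFKFB4 in PC9-AMG. PFKFB3 and PFKFB4 encode enzymes that make and remove the fructose bisphosphate which activates phosphofructokinase, and both are known hypoxia targets. PFKFB3 (chr10:6144880-6235544), whose promoter is printed above, was at 72.2 and 75.4 TPM in PC9, 48.5 and 41.4 TPM in PC9-BrM4, and 37.5 and 33.7 TPM in PC9-AMG. The groups did not overlap. PFKFB3 fell by 0.71 in PC9-BrM4 (SE 0.12, adjusted p = 0.00379) and by 1.03 in PC9-AMG (SE 0.12, adjusted p = 0.00232), and both calls were made whichever library was left out, at adjusted p up to 0.0479 and 0.0408. Between the derivatives PFKFB3 was not called (-0.32 ± 0.12, adjusted p = 0.0857). PFKFB4 was at 43.5 and 43.8, 44.2 and 38.3, and 28.7 and 25.7 TPM, so that both PC9-AMG libraries lay below the other 4. It fell by 0.67 from PC9 to PC9-AMG (SE 0.12, adjusted p = 0.0149) and differed between the derivatives by -0.58 ± 0.12 (adjusted p = 0.0104). The first of these calls was lost without either PC9 library or PC9-AMG library 2 and the second without PC9-BrM4 library 1 or PC9-AMG library 2 (0.0585 to 0.129).

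LDHA (chr11:18394389-18408218), the lactate dehydrogenase subunit that favours lactate formation, rose in PC9-BrM4. It was at 3395 and 3234 TPM in PC9, 5089 and 4787 TPM in PC9-BrM4, and 2912 and 3082 TPM in PC9-AMG. The PC9-BrM4 libraries lay above the other 4, by 0.57 ± 0.07 over PC9 (adjusted p = 0.000463). PC9-AMG differed from PC9-BrM4 by -0.72 ± 0.07 (adjusted p = 0.000143), and both calls were made whichever library was left out. LDHA was the gene ranked 15 and 21 of all genes in the PC9 libraries, 8 in both PC9-BrM4 libraries, and 32 and 30 in PC9-AMG. SLC16A3, the lactate exporter MCT4, was at 364 and 385, 388 and 408, and 407 and 329.6 TPM and was not called, with intervals of -0.15 to 0.32 in PC9-BrM4 and -0.26 to 0.20 in PC9-AMG against PC9. PDK1, the kinase that inhibits pyruvate dehydrogenase, was at 75.0 and 76.3, 82.3 and 73.4, and 55.9 and 62.2 TPM. It was lower in PC9-AMG than in PC9-BrM4 (-0.39 ± 0.11, adjusted p = 0.0333), a call lost without PC9-BrM4 library 1 or PC9-AMG library 1 (0.107 to 0.157) and after median scaling.

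The carbonic anhydrases, membrane enzymes that help remove acid, did not move together. CA9, among the most hypoxia-responsive genes known, was at 181 and 179 TPM in PC9, 198 and 212 TPM in PC9-BrM4, and 153 and 153 TPM in PC9-AMG. The 3 groups did not overlap, and the derivatives differed by -0.42 ± 0.09 (adjusted p = 0.00937), a call made whichever library was left out but lost after median scaling and in FPKM. Neither derivative was called against PC9 (0.18 ± 0.09, adjusted p = 0.187, and -0.24 ± 0.09, adjusted p = 0.121). CA12 was low, at 5.72 and 6.42, 3.58 and 2.80, and 4.32 and 3.93 TPM, and fell by 0.76 in PC9-BrM4 (SE 0.19, adjusted p = 0.0239). That call was lost without either PC9 library or PC9-BrM4 library 2 (0.0754 to 0.184).

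The secreted factors moved differently in the derivatives. VEGFA (chr6:43770209-43786486), the main angiogenic growth factor, was at 185 and 196 TPM in PC9, 210.2 and 185 TPM in PC9-BrM4, and 133 and 121 TPM in PC9-AMG. Both PC9-AMG libraries lay below the other 4. VEGFA fell by 0.58 from PC9 to PC9-AMG (SE 0.10, adjusted p = 0.0111) and differed between the derivatives by -0.63 ± 0.10 (adjusted p = 0.00248); the first call was lost without either PC9 library or PC9-AMG library 2 (0.0720 to 0.118), and the second was made whichever library was left out. ADM (chr11:10304980-10307402), the vasodilator peptide adrenomedullin, was at 147 and 151 TPM in PC9, 81.9 and 89.8 TPM in PC9-BrM4, and 111 and 122 TPM in PC9-AMG. The groups did not overlap, with PC9-BrM4 lowest. ADM fell by 0.79 in PC9-BrM4 (SE 0.10, adjusted p = 0.000683), whichever library was left out, and was not called in PC9-AMG against PC9 (-0.35 ± 0.10, adjusted p = 0.0587). Between the derivatives ADM was higher in PC9-AMG by 0.44 ± 0.10 (adjusted p = 0.0143), and this was lost without PC9-BrM4 library 1 or PC9-AMG library 2 (0.0634 to 0.0862).

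LOX (chr5:122063195-122078360), the lysyl oxidase that cross-links collagen and whose promoter held 4 of the searched motifs, fell most of the 40 genes in PC9-BrM4. It was at 12.7 and 12.8 TPM in PC9, 4.68 and 4.56 TPM in PC9-BrM4, and 5.999 and 6.21 TPM in PC9-AMG. The groups did not overlap, and both derivatives were below PC9. LOX fell by 1.29 in PC9-BrM4 (SE 0.15, adjusted p = 0.000544), whichever library was left out, and by 0.95 in PC9-AMG (SE 0.15, adjusted p = 0.00966), where leaving out any 1 of the 4 libraries lost the call (0.0534 to 0.0953). Collagen prolyl hydroxylases are the other matrix genes. P4HA2 was at 114 and 119.7, 106 and 93.8, and 83.6 and 81.1 TPM and fell by 0.50 in PC9-AMG (SE 0.10, adjusted p = 0.0209), also lost with any 1 of the 4 libraries left out (0.0616 to 0.209). P4HA1 was at 374 and 375, 358 and 314, and 271 and 316 TPM and was not called (-0.35 ± 0.10 in PC9-AMG against PC9, adjusted p = 0.0609).

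Of the 5 further targets, ANKRD37 and HILPDA fell in PC9-BrM4 and none was called in PC9-AMG against PC9 or between the derivatives. HILPDA, which slows the breakdown of lipid droplets, was at 77.6 and 77.3 TPM in PC9, 51.7 and 60.3 TPM in PC9-BrM4, and 52.9 and 61.2 TPM in PC9-AMG. Both derivatives lay below PC9 and overlapped each other; the differences were -0.47 ± 0.12 (adjusted p = 0.0263) in PC9-BrM4 and -0.44 ± 0.12 (adjusted p = 0.0529) in PC9-AMG. ANKRD37, an ankyrin repeat gene, was at 76.5 and 63.2, 45.2 and 55.2, and 56.3 and 58.1 TPM and fell by 0.47 in PC9-BrM4 (SE 0.13, adjusted p = 0.0396). Both calls were lost without either PC9 library or PC9-BrM4 library 1 (0.0684 to 0.346). NDRG1, a stress-induced gene, stayed between 1644 and 1965 TPM. The mitophagy receptors BNIP3 and BNIP3L ranged from 156 to 228 TPM and from 75.8 to 117 TPM, lowest in a PC9-AMG library each, and were not called (BNIP3L in PC9-AMG against PC9 -0.39 ± 0.12, adjusted p = 0.0803).

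Other genes of the pathways were read from the same fit. Of 34 further hypoxia targets, 4 rose and 6 fell in PC9-BrM4 against PC9, 0 rose and 10 fell in PC9-AMG against PC9, and 2 were higher and 12 lower in PC9-AMG than in PC9-BrM4. These are 29.4%, 29.4% and 41.2% of the list, beside 16.3%, 7.49% and 18.6% of all tested genes. Their median log2 differences were -0.04, -0.27 and -0.30, against 0.09, -0.05 and -0.13 for all tested genes. The angiopoietin-like gene ANGPTL4 was at 56.8 and 56.6 TPM in PC9, 94.2 and 109.8 TPM in PC9-BrM4, and 49.1 and 48.1 TPM in PC9-AMG, a rise of 0.83 ± 0.11 in PC9-BrM4 (adjusted p = 0.000917). IGFBP3, a binding protein of insulin-like growth factors, was at 2790.0 and 2840.1, 2240.3 and 2065, and 1687 and 1741 TPM and fell by 0.72 in PC9-AMG (SE 0.07, adjusted p = 0.00108). PLOD2, a collagen lysyl hydroxylase, was at 120.0 and 111, 121 and 97.7, and 52.8 and 71.2 TPM and fell by 0.90 in PC9-AMG (SE 0.15, adjusted p = 0.0108), which did not hold when PC9 library 1 or PC9-AMG library 1 was dropped (0.0584 and 0.0679). TMEM45A was at 142 and 139.5, 325 and 331, and 162 and 170.3 TPM, a rise of 1.21 ± 0.08 in PC9-BrM4 (adjusted p = 1.6e-05).

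Of 9 tested regulators of the factors, VHL and CITED2 rose in PC9-BrM4 (22.2%, beside 16.3% of all tested genes). None was called in PC9-AMG against PC9 with limma (7.49% of all tested genes), where 1 had an unadjusted p under 0.05. Both genes were lower in PC9-AMG than in PC9-BrM4 (22.2%, beside 18.6%). The differences were -0.40 ± 0.10 for VHL (adjusted p = 0.0253) and -0.41 ± 0.08 for CITED2 (adjusted p = 0.00941). Over the alternatives they ran from -0.43 to -0.23 and from -0.44 to -0.24, and both calls were lost after median scaling. VHL, the substrate receptor of the ubiquitin ligase, was at 44.0 and 43.0 TPM in PC9, 59.5 and 57.2 TPM in PC9-BrM4, and 44.5 and 43.3 TPM in PC9-AMG. It rose by 0.41 ± 0.10 in PC9-BrM4 (adjusted p = 0.0241), a call lost without either PC9 library or PC9-BrM4 library 1 (0.0783 to 0.218) and after median scaling. CITED2, which competes with the alpha subunits for a coactivator, was at 141 and 143, 194 and 193, and 148 and 143 TPM and rose by 0.44 ± 0.08 (adjusted p = 0.00746), lost without either PC9 library (0.0901 and 0.104) and after median scaling.

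Neighbouring metabolic routes also held called genes. SLC16A1, the monocarboxylate transporter MCT1, was at 28.6 and 27.9 TPM in PC9, 71.5 and 62.7 TPM in PC9-BrM4, and 43.7 and 52.4 TPM in PC9-AMG. It rose by 1.22 ± 0.13 in PC9-BrM4 (adjusted p = 0.000218) and by 0.74 ± 0.13 in PC9-AMG (adjusted p = 0.0114); the latter was lost without either PC9 library or PC9-AMG library 2 (0.0720 to 0.0907). SLC16A7, the related transporter MCT2, was at 2.70 and 2.23, 0.0711 and 0.0313, and 0.824 and 0.519 TPM and fell by 1.72 in PC9-BrM4 (SE 0.25, adjusted p = 0.00187) and by 1.05 in PC9-AMG (SE 0.25, adjusted p = 0.0378). SLC2A10, a further member of the glucose transporter family, was at 33.5 and 36.5, 14.7 and 13.0, and 24.4 and 23.6 TPM and fell by 1.28 (SE 0.13, adjusted p = 0.000183) and by 0.53 (SE 0.13, adjusted p = 0.0384). The falls of SLC16A7 and SLC2A10 in PC9-AMG were lost with any 1 of the 4 libraries left out (0.0747 to 0.320) and that of SLC16A7 also with pseudocounts of 0.1 and 0.5. At a pseudocount of 0.1 SLC16A7 fell by 4.09 in PC9-BrM4. PGD, an enzyme of the oxidative pentose phosphate pathway, was at 425 and 436, 245 and 240.3, and 357 and 325 TPM and fell by 0.82 in PC9-BrM4 (SE 0.08, adjusted p = 0.000183). Of 16 tested further glycolytic isoenzymes and lactate genes, 2 rose and 3 fell in PC9-BrM4 and 1 rose and 2 fell in PC9-AMG against PC9. For 13 genes of pyruvate dehydrogenase and its regulators these counts were 1 and 1, then 1 and 0, for 17 genes of the tricarboxylic acid cycle 3 and 2, then 0 and 2, and for 7 genes of the pentose phosphate pathway 0 and 1 in each. Of 3 tested genes of gluconeogenesis, FBP1 and PCK2 rose in PC9-BrM4 (0.45 ± 0.11, adjusted p = 0.0188, and 0.39 ± 0.11, adjusted p = 0.0386), calls lost with any 1 of the 4 libraries left out (0.0531 to 0.272) and after median scaling, and 0 were called in PC9-AMG against PC9 with limma, where 1 had an unadjusted p under 0.05. With all tested genes at 16.3% and 7.49%, the shares called were 15.4% and 7.69% for pyruvate dehydrogenase and 29.4% and 11.8% for the tricarboxylic acid cycle. They were 14.3% in each for the pentose phosphate pathway, 31.2% and 18.8% for the further isoenzymes and lactate genes, and 66.7% and 0% for gluconeogenesis. Between the derivatives, with all tested genes at 18.6%, the shares were 7.69% for pyruvate dehydrogenase and 35.3% for the tricarboxylic acid cycle. In that comparison they were 28.6% for the pentose phosphate pathway, 43.8% for the isoenzymes and lactate genes, and 33.3% for gluconeogenesis. MPC1, a subunit of the mitochondrial pyruvate carrier, was at 5.19 and 4.04, 5.89 and 5.82, and 9.15 and 11.1 TPM and rose by 0.99 ± 0.18 in PC9-AMG (adjusted p = 0.0149), lost with any 1 of the 4 libraries left out (0.0527 to 0.146).

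Some of these differences stood beside a shift of the surrounding genes. Among tested genes within 5 Mb, the median log2 difference in PC9-BrM4 against PC9 was -0.28 over 43 genes around HILPDA and -0.26 over 89 genes around PFKM, where the genes themselves were at -0.47 and -0.65. Around LOX (21 genes), ALDOC (69 genes), ADM (64 genes), PFKFB3 (30 genes) and KDM3A (34 genes), which fell, the median lay between 0.10 and 0.19. The median of all tested genes was 0.09 in PC9-BrM4 against PC9, -0.13 between the derivatives and -0.05 in PC9-AMG against PC9. Around SLC2A3 the median of the neighbours in PC9-BrM4 against PC9 was -0.06 over 108 genes, and around LDHA 0.15 over 35 genes. Between the derivatives it was -0.38 over 35 genes around PFKP and 0.24 over 89 genes around PFKM, where the genes themselves were at -0.41 and 0.53. In PC9-AMG against PC9 it was -0.21 over 30 genes around PFKFB3 and -0.10 over 21 genes around LOX. Whether DNA copy number differs between the lines was not tested.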

How the data were processed

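Per the labels' protocols, RNA was isolated with TRIzol and made into TruSeq stranded mRNA libraries. Per the submitters' processing notes, the tools were HISAT2 2.1.0 and StringTie 1.3.4d and the build hg38; the annotation and the strand setting of the counting are not given in the sources used here. TPM and FPKM per gene, and Coverage (mean signal in reads per base), were computed by the authors and are in the deposited tables per the file headers; there are no read counts. TPM of genes with several rows was summed. For all 40 genes the deposited table over all libraries equalled the library tables within 0.001 TPM.

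Genes reaching 1 TPM in 2 or more libraries (14627) entered limma 3.58.1 (R 4.3.3) as log2(TPM + 1). All 6 libraries were fitted together with group means and a variance trend (3 residual and 6.81 prior degrees of freedom), with Benjamini-Hochberg adjustment over all tested genes. Tests were two-sided, and the fit was tested on simulated data. Differences on this scale understate changes of low genes. "Rose", "fell", "higher" and "lower" in the comparisons refer to adjusted p under 0.05. The 40 genes, the lists and the tests were chosen with earlier results of these data known. Named are all of the 40 genes that were called, and up to 3 called genes of each further list and comparison; the promoters are those of genes called against PC9 in both derivatives. Gene coordinates are those of the deposited tables (hg38). The alternatives were median scaling, quantile normalization, FPKM, the table over all libraries, no filter, pseudocounts of 0.1 and 0.5, no variance trend, a filter at 5 TPM, a fit of the 4 compared libraries alone, a replicate block, and leaving out each library. A group left with 1 library borrows its spread from the other groups. Some results are not reported here.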

Additional observations from a re-analysis of the deposited data

Results flagged for a closer look

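For 5 genes both PC9-BrM4 libraries lay above both PC9 libraries and both PC9-AMG libraries lay below them, and the derivatives differed in limma's test. The log2 difference of PC9-AMG from PC9-BrM4 was -0.72 for LDHA, -0.64 for HK2, -0.42 for CA9, -0.32 for SLC2A1 and -0.25 for PGAM1. The direction of these differences follows from how the genes were picked. Of these, LDHA and HK2 were called in PC9-BrM4 against PC9, and none of the 5 was called in PC9-AMG against PC9. Groups of 2 libraries are too small to test for a single library far from the others.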

How the results depend on the processing

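Of the 40 genes, the number called in PC9-BrM4 against PC9 (14) was 7 with no filter on low values, 8 with no variance trend and 6 to 10 with a library left out. In PC9-AMG against PC9 (10) it was 3 with no filter, 3 with no variance trend and 1 to 6 with a library left out, and in PC9-AMG against PC9-BrM4 (14) it was 9 after median scaling, 9 in FPKM, 9 with no filter, 7 with no variance trend, 9 with only the 4 libraries compared and 5 to 15 with a library left out. Over all tested genes the 2389, 1096 and 2720 calls became 892 to 1726, 131 to 369 and 1024 to 2886 with a library left out; the second was 250 with no filter and 325 with no variance trend, and the third 1799 with no filter. Fewer libraries leave fewer degrees of freedom; for the other settings the cause was not tested. Among differences called under at least 1 setting, those whose direction turned were not called in the main test. ALDOA turned in PC9-BrM4 against PC9 after quantile normalization (0.26). GAPDH turned in PC9-AMG against PC9 after median scaling (0.0503), after quantile normalization (0.15) and in FPKM (0.0474). With a library left out the GAPDH difference ran from -0.0531 to 0.0146. In PC9-AMG against PC9-BrM4, ALDOA (0.0196) and ENO1 (0.0189) turned after median scaling. Differences called under no setting, which include values near 0, are not listed. Calls of the 40 genes made under all 15 alternatives were 6 in PC9-BrM4 against PC9 (SLC2A3, ALDOC, PFKFB3, LDHA, ADM and LOX), 1 in PC9-AMG against PC9 (PFKFB3) and 4 between the derivatives (SLC2A3, ALDOC, LDHA and VEGFA). Libraries with the same replicate number did not deviate together (correlations 0.03, -0.04 and 0.00), so the numbers were not taken to pair them; with the replicate number as a block 14, 12 and 13 of the 40 genes and 2483, 1298 and 2905 of all tested genes were called. With 2 libraries a group and no read counts, the precision of low values cannot be computed.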
